A study of Mus musculus with 21 samples.

Results

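Binding of the glucocorticoid receptor (GR) after 24 h of hypoxia was compared between livers of mice given dexamethasone (DEX), a synthetic glucocorticoid, and livers of mice given phosphate-buffered saline (PBS). The comparison used the GR ChIP-seq peak lists of 3 DEX and 3 PBS libraries out of the 18 GR libraries of the study. Overlapping peaks of the 6 lists (minimum 1 bp) were joined, which gave 2349 sites, against 7398 sites when all 18 lists were merged. A site was described by the libraries whose list held a peak there and by the authors' normalized tag count (aligned reads at the peak, scaled to 10000000 tags per library).

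All 6 mice were C57BL/6J and breathed 7% oxygen. The DEX group received 10 mg/kg into the abdomen, the PBS group received saline, and mice of both groups went back to 7% oxygen until sampling 2 h later. Chromatin came from snap-frozen whole liver and was precipitated with a rabbit antibody to GR (H300), so the cell type behind a peak is not recorded. Fewer cells of a type and less receptor bound per cell cannot be told apart. The other libraries came from normoxia and from 6 h of hypoxia and are used below only where the DEX effect at 24 h is set against theirs.

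GR is a nuclear receptor that rests in the cytoplasm with chaperones, moves to the nucleus when it binds a glucocorticoid, and attaches to DNA at glucocorticoid response elements, where it raises or lowers transcription. In liver it is known for inducing gluconeogenic and amino acid degrading enzymes and for restraining inflammatory genes. Mice also make corticosterone, a natural glucocorticoid, so PBS livers can carry occupied sites.

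The letters under the sites could be read where a site lay on an annotated gene start. Of the 1102 sites with a peak in all 3 DEX libraries, 51 (4.63%) touched a RefSeq promoter window of 300 bases, and 40 covered at least 100 bp of one. The windows run from 250 bases before to 50 bases after a gene start (RefSeq, GRCm38.p6, the assembly behind mm10). The response element was searched on both strands as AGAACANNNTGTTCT, as its 6-base arm AGAACA or TGTTCT, which the longer forms can contain, and as GNACANNNTGTNC, a looser form that also matches wherever the first does. The 15-base form was in 3 of 32815 windows and in 0 of the 40. The looser form was in 9 of the 40 windows (22.5%), against 0.475% of all windows, and in all 9 it lay inside the site, at most 37 bases from its centre. A 6-base arm was in 14 of the 40 (35%), against 19% of all windows. A match is a description of these letters, not a measured binding site.

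The sequences below show what lay at the centre of 5 promoter sites whose tag counts are given further down, each on the strand of its gene, with the looser match in capitals. Mt1, encoding a metal-binding metallothionein, is at chr8:94178955-94179047 on the plus strand, and its match ends 81 bases before the gene start. Map3k6, encoding a stress-activated kinase, is at chr4:133240597-133240689 on the plus strand. Slc10a6, encoding a carrier of sulphated steroids, is at chr5:103629514-103629606 on the minus strand. The lncRNA gene A230028O05Rik, at chr16:25059389-25059444 on the plus strand, starts beside the Lpp site at which DEX and PBS livers were nearly level. Orm2, encoding an acute phase plasma protein, is at chr4:63362281-63362366 on the plus strand and holds a 6-base arm, here in capitals, 1.5 bases from the site's centre.
Mt1: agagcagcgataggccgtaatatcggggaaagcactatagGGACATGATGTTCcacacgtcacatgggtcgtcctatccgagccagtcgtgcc
Map3k6: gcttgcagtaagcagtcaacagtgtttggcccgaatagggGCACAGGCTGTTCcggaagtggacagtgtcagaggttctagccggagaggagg
Slc10a6: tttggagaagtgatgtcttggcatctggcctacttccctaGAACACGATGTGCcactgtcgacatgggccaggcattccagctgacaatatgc
A230028O05Rik: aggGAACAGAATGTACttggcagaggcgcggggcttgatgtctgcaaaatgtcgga
Orm2: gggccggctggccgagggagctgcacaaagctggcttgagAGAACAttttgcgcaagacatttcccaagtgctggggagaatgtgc

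DEX livers held many more GR peaks than PBS livers. The DEX libraries had 1235, 1370 and 2287 peaks, and the PBS libraries had 260, 153 and 78. The lowest DEX library was far above the highest PBS library. The means were 1631 ± 572 peaks in DEX libraries and 164 ± 91.5 in PBS libraries (SD, n = 3 per group), a ratio of geometric means of 10.8 (exact two-sided permutation test on log2 numbers, p = 0.1, the smallest that 3 against 3 libraries can give). Depth did not separate the groups, with 8849180 to 12642344 tags in DEX and 9626355 to 11723788 tags in PBS libraries.

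The share of tags that fell in peaks was also higher with DEX. It was 1.38, 2.15 and 2.76% in DEX libraries and 0.388, 0.201 and 0.150% in PBS libraries. The groups did not overlap, and the means were 2.10 ± 0.694% and 0.247 ± 0.125% (SD, n = 3 each, exact permutation p = 0.1). The lists were also cut to the 78 highest-scoring peaks of every library. Of 150 sites so obtained, 32 were in all 6 libraries, 26 in all 3 DEX and no PBS libraries, and 12 in all 3 PBS and no DEX libraries. These counts reflect rank within lists of very different length: in the whole lists 13 of the 26 sites had a PBS peak, and 10 of the 12 had a peak in all 3 DEX libraries.

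**Figure D1:**
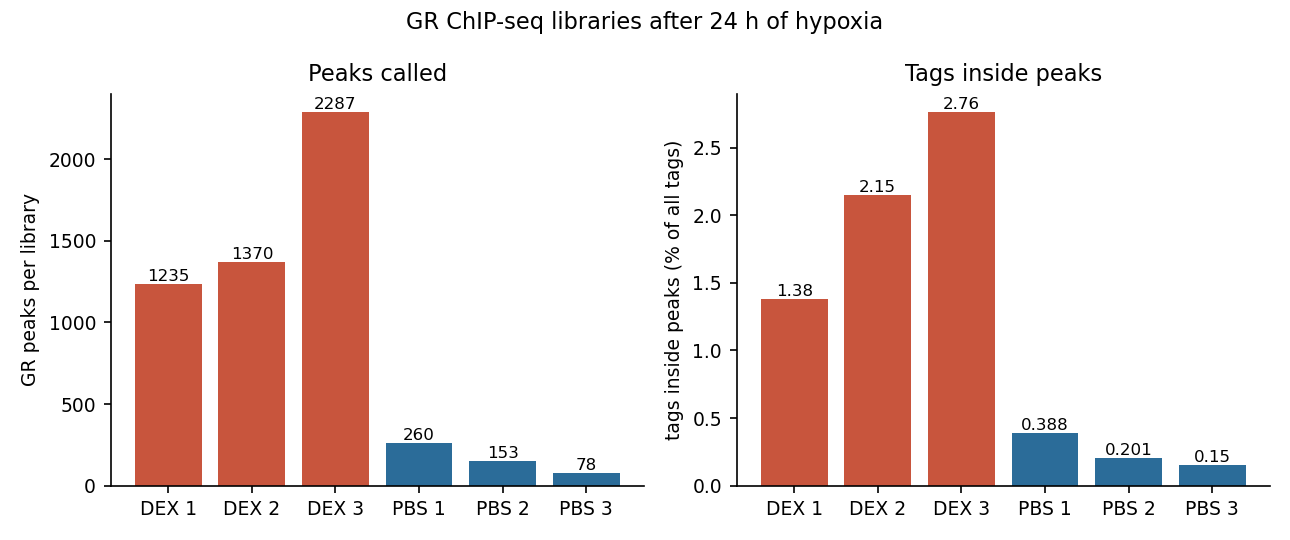
GR peaks per library (left, number) and tags inside peaks (right, percent of all tags of the library) in the 3 DEX and 3 PBS libraries after 24 h of hypoxia, 1 bar per library. Every DEX bar is higher than every PBS bar, and the 3 PBS libraries hold between 78 and 260 peaks.

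At the level of single sites, most sites called with PBS were also called with DEX, and many more were called with DEX alone. A peak in all 3 DEX and in no PBS library was found at 862 of the 2349 sites (36.7%), and the opposite pattern at 0. Another 96 sites had a peak in all 3 DEX libraries and 1 PBS library, 77 in all 3 and 2, and 67 in all 6. Of the 269 sites of any PBS library, DEX libraries held 255 (94.8%), while PBS libraries held 240 of the 1102 sites of all 3 DEX libraries (21.8%). Sites of a single DEX library were the other large group, at 866, and 829 of these were in DEX replicate 3, the library with the most peaks.

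Sites that PBS livers also occupied were the stronger ones with DEX. The median over sites of the mean DEX tag count was 97.4 where no PBS library had a peak, 154 with 1, 231 with 2 and 368 with all 3. The 862 sites without a PBS peak ranged widely around their median, up to 798 tags. The absence of a peak does not bound the PBS tag count at them, because a peak also had to exceed its surroundings and the input. The lowest tag counts called in the PBS libraries were 50.6, 45.2 and 55.1, so no fold change is given for these sites.

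**Figure D2:**
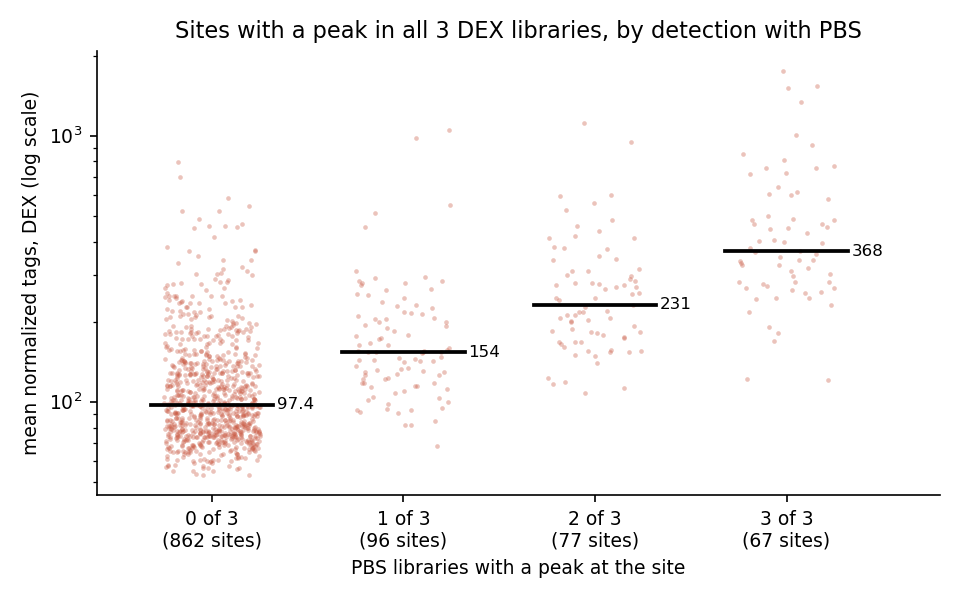
Mean normalized tag count in the 3 DEX libraries (log axis) of each site with a peak in all 3 DEX libraries, by the number of PBS libraries with a peak there; 1 point per site, black lines are medians. The medians climb from 97.4 tags at sites without a PBS peak to 368 at sites with a peak in every PBS library.

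The 862 sites were ranked by their tag count in the lowest of the 3 DEX libraries. The highest was 1440 bp from Arrdc2, which encodes an arrestin-like adaptor, at chr8:70833582-70833795, with 598.2, 857.7 and 937.3 tags in the 3 DEX libraries and no PBS peak. The next was 17803 bp from Gadd45g, a stress-induced regulator of growth arrest, with 511.9, 678 and 905.7 tags. All 3 DEX libraries were high at both, and DEX replicate 1 was the lowest.

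Inside Gng7, which encodes a G protein subunit, DEX libraries had 453.8, 536.8 and 575.8 tags. Inside Bcl2l1, which encodes the survival protein Bcl-xL, they had 408.5, 595.5 and 743.5. Inside Mgll, encoding the lipase that splits monoacylglycerols, they had 390.5, 543.6 and 529.2. None of the 3 sites had a peak in any PBS library of 24 h hypoxia.

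The other 7 of the first 12 by this rank were nearest to Foxo1 (a transcription factor of gluconeogenic genes), Ccdc162, Cldn14 (a tight junction protein), St3gal5 (the enzyme that makes the ganglioside GM3), Gpat4 (glycerolipid synthesis), Hapln2 and Fem1c. The Foxo1 site was 196140 bp from its gene, and the Fem1c site 94764 bp. Their lowest DEX tag counts were 298.3 to 367.5. All 12 sites had a peak in all 6 DEX libraries of normoxia and 6 h hypoxia, and all 12 in 1 or more PBS libraries of those conditions, 6 h PBS replicate 2 included each time.

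Detection in other conditions was also common, though less complete, over the 862 sites. Every one had a peak in some DEX library of normoxia or 6 h hypoxia, and 697 (80.9%) in all 6 of those libraries. A peak in at least 1 PBS library of normoxia or 6 h hypoxia was found at 531 (61.6%). Leaving out normoxia PBS replicate 1, which held 43645787 tags, it was found at 483 (56.0%). With PBS at 6 h of hypoxia, 477 of them (55.3%) had a peak in at least 1 library. The 3 libraries differed much in this, with 22, 432 and 261 of the 862 sites in replicates 1, 2 and 3.

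PBS livers had few sites of their own, and most of these were also high in input DNA. Of the 14 sites found with PBS and not with DEX, 13 were in 1 library, 12 of them PBS replicate 1. The remaining one, inside Taco1 at chr11:106066684-106066874, had 121.1 and 91.3 tags in PBS replicates 1 and 2. At 12 of the 14 sites the input held 20 or more tags, with a median of 44.8 over the 14. At the 862 sites of all DEX and no PBS libraries the median was 2.1 input tags and the highest 5.8. The part of the input in the PBS sites was not tested, and 13 of the 14 had a peak in a DEX library of another oxygen condition.

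Of the 71 sites with a peak in all 3 PBS libraries, 67 were the sites of all 6. The other 4 lacked a peak in at least 1 DEX list and were nearest to Hjurp, Cr2, Csf2ra and, in the mitochondrial genome, CYTB. At the Cr2 site DEX replicate 3 had 490.4 tags and PBS libraries had 800.2, 551.9 and 584.9, so the single DEX value was under all 3 PBS values. The input reached 136.2 tags at this site and 70.7 at that of Csf2ra.

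The 67 sites with a peak in all 6 libraries allowed a comparison of tag counts. They were mostly higher with DEX, by a median of 1.55 on the log2 scale, or 2.93-fold. This fold covers only sites that passed the peak threshold in every PBS library, and does not extend to the others. The median tag count over the 67 sites was 281.2, 382 and 435 in DEX libraries and 167.8, 112.6 and 83.1 in PBS libraries. The groups did not overlap, and the log2 medians differed by 1.63 (exact permutation p = 0.1, the smallest possible).

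In limma, 59 of the 67 sites (88.1%) passed an adjusted p of 0.05 as higher with DEX and 1 (1.49%) as lower. At 55 sites (82.1%) the lowest DEX library was above the highest PBS library. The middle of the distribution ran from 2.16-fold to 3.72-fold between its quartiles, and 14 sites were at least 4-fold higher. Libraries shifted as a whole: of the 66 nuclear sites, DEX replicate 1 was the lowest DEX library at 66 and PBS replicate 1 the highest PBS library at 65. Because of this shared shift limma gave every site the same standard error, 0.40, and its p-values treat sites as more independent than they were.

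With each library centred on its own median, 14 sites (20.9%) were above and 22 (32.8%) below the common shift, so the sizes of the change differed between sites by more than the spread left after centring. That centring took 1.63 from every change.

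**Figure D3:**
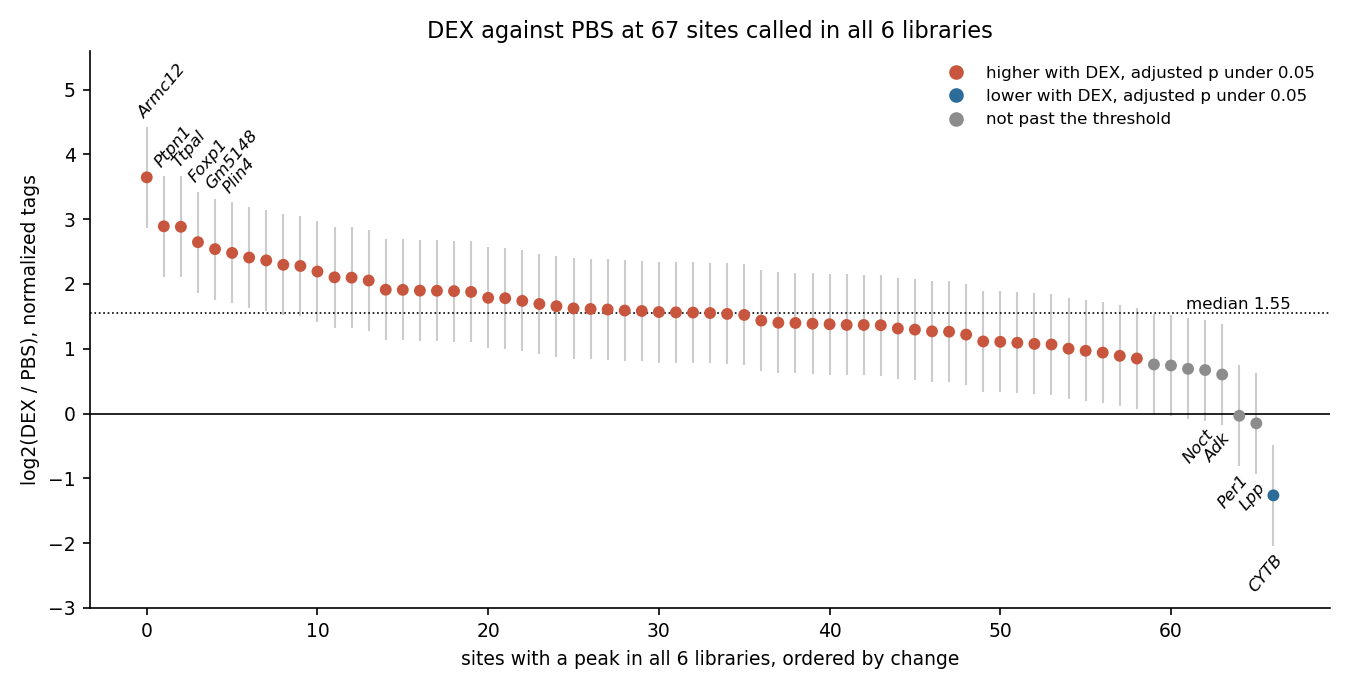
Log2 ratio of normalized tags, DEX over PBS, at each of the 67 sites with a peak in all 6 libraries, ordered by size; bars are 95% intervals from limma and the dotted line is the median. Most points lie above 0, the site 26792 bp from Fkbp5 (labelled Armc12) is the highest, and the mitochondrial site labelled CYTB is the lowest.

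The largest change was at chr17:28512801-28513081, nearest to Armc12 and 26792 bp beyond the span of Fkbp5, which encodes a chaperone partner of GR and is a classical target of it. DEX libraries had 1086.2, 1663.4 and 1780.5 tags there and PBS libraries had 203.5, 104.9 and 76.9. The groups lay far apart. The log2 change was 3.65 ± 0.40 (SE), 12.5-fold (limma adjusted p = 6.28e-16).

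Next came chr2:167851704-167851923, 78936 bp from Ptpn1, which encodes a phosphatase that dampens insulin signalling. DEX libraries had 542.7, 817 and 915.2 tags and PBS libraries had 162.8, 99.8 and 61.3. The groups did not overlap, and the log2 change was 2.89 ± 0.40 (SE).

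At the Ttpal site, near a gene related to the vitamin E carrier, DEX libraries had 603.3, 870.1 and 949.2 tags and PBS libraries had 191.6, 104.1 and 62.3. Every DEX library was above every PBS library, and the log2 change was 2.88. At the Foxp1 site, in the gene of a forkhead transcription factor, DEX libraries had 346.1, 516.4 and 632 tags and PBS libraries had 88.4, 70.8 and 73.8. Here the PBS libraries were close to each other, and the log2 change was 2.64.

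The remaining 8 of the 12 largest changes, 2.10 to 2.54 on the log2 scale, were nearest to Gm5148, Plin4 (a lipid droplet coat protein), Hectd4, Nfkbia (the inhibitor of NF-kB), Cdkn1a (the cell cycle inhibitor p21), Irf2bp2 (a transcriptional co-repressor), Tomm20 (a mitochondrial import receptor) and Foxo1. Irf2bp2, Tomm20 and Foxo1 were over 100 kb from their sites. With centring all 12 stayed above the common shift, and 11 passed the threshold. The exception was the Foxo1 site, 0.47 above the shift with an adjusted p of 0.0883 in limma.

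At the other end stood Per1, a core gene of the circadian clock. Of its 2 sites, the one at chr11:69096976-69097184, inside the gene, held similar tag counts in DEX and PBS livers. The other had a peak in all 3 DEX libraries and in some but not all PBS libraries, so it was not tested. The values that follow are those of the tested site. DEX libraries had 312.8, 392.1 and 499.1 tags there and PBS libraries had 541.1, 309.6 and 392.7. The groups overlapped throughout, and the log2 change was -0.03 with a 95% interval of -0.81 to 0.74.

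The Lpp site, whose letters are shown above, was similar. DEX libraries had 206.8, 224.9 and 341.7 tags and PBS libraries had 380.3, 223.5 and 256.6, again with overlap. The log2 change was -0.15, with a 95% interval of -0.93 to 0.63. Both sites fell with centring to well under the common shift, at -1.67 for Per1 and -1.78 for Lpp, with limma adjusted p-values of 0.000427 and 0.000348.

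The next smallest changes were 0.60 at the site of Adk (adenosine kinase) and 0.67 at that of Noct (a rhythmic gene of the liver). Neither passed the threshold, with limma adjusted p-values of 0.133 and 0.0954. Without PBS replicate 1 both passed, at 0.73 and 1.03, and without DEX replicate 1 Noct passed, at 0.87. The other sites that did not pass were near Ddc, Spag9 and Tob2; these 3 were named after their values were seen.

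The site that fell was in the mitochondrial genome, beside CYTB. DEX libraries had 954.6, 1671.3 and 1370 tags and PBS libraries had 2566.4, 3009.3 and 3918.4. The groups did not overlap, and the log2 change was -1.26 ± 0.40 (SE, limma adjusted p = 0.00216). The input held 193.6 to 270.8 tags at this site in the 6 lists, against at most 5.3 at the nuclear sites of all 6 libraries. The part of the input in the change was not tested.

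Neighbouring sites at the same locus did not always move together. The 66 nuclear sites formed 23 pairs within 100 kb, which were compared as ratios inside each library, so that differences between libraries cancel. In 8 pairs (34.8%) the ratios did not overlap between the groups, in 4 they differed by over 1 on the log2 scale, and in 19 by less than 0.5. All 4 held either the site with the largest change, near Fkbp5, or that with the next largest, beyond Ptpn1. A large difference from a neighbour follows in part from picking such sites. The p-values given below for these pairs therefore add no support. Several sites occur in more than 1 pair, so the pairs are not independent.

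At Fkbp5, 3 shared sites lay 26792, 32034 and 37016 bp beyond the gene. At the middle one DEX libraries had 535, 728.9 and 885.9 tags and PBS libraries had 560.9, 400.9 and 262.8, so that the groups overlapped. At the farthest one DEX libraries had 241, 309.6 and 337 tags and PBS libraries had 149.9, 104.1 and 115.3.

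The order of the nearest and the middle site thus turned round between the groups. The log2 ratio of the nearest to the middle one averaged 1.07 ± 0.10 over DEX libraries, against -1.72 ± 0.24 over PBS libraries (SD, n = 3 each). The difference was 2.80 (exact two-sided permutation p = 0.1, the smallest possible). Inside Fkbp5 itself, sites at chr17:28420233-28420432 and chr17:28424461-28424654 had peaks in all 3 DEX and no PBS libraries.

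Beyond Ptpn1, a strong site 85987 bp from the gene had 1328, 1678.1 and 2243.3 tags in DEX libraries and 1271.8, 808.6 and 606.7 in PBS libraries. It was the highest of all 2349 sites by mean DEX tag count, at 1750 ± 462 (SD, n = 3), and its log2 change of 1.00 was small beside the 2.89 of the site 78936 bp from the gene. The log2 ratio of the stronger to the weaker site averaged 1.21 ± 0.15 over DEX libraries, against 3.10 ± 0.18 over PBS libraries (SD, n = 3 each, exact permutation p = 0.1). The remaining shared site, 70014 bp from the gene, changed by 1.09.

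**Figure D4:**
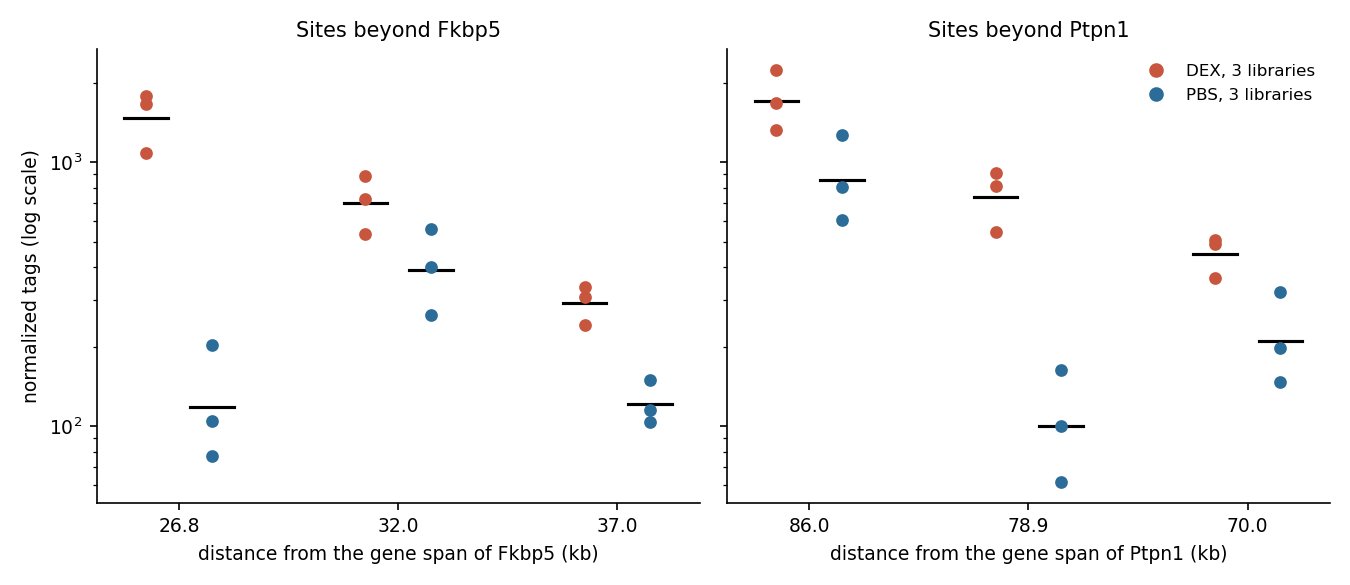
Normalized tags (log axis) at 3 neighbouring sites beyond Fkbp5 (left) and beyond Ptpn1 (right), each with a peak in all 6 libraries, against the distance from the gene span; points are libraries, DEX left of PBS, and black lines are geometric means. The site nearest to Fkbp5 shows the widest gap between DEX and PBS, while its neighbour at 32034 bp overlaps.

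Several genes were nearest to clusters of sites. The 1102 sites of all 3 DEX libraries were nearest to 844 genes, of which 162 had more than 1 such site and 12 had 5 or more. Zbtb16, a transcription factor gene known as a glucocorticoid target, had 9, all inside the gene: 3 without a PBS peak, 4 with a peak in 1 or 2 PBS libraries and 2 shared by all 6. Its highest site, at chr9:48723762-48723959, had 645.2, 1091.6 and 1100.3 tags with DEX and 159.8 and 72.5 in PBS replicates 1 and 2. PBS replicate 3 had no peak there.

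Gadd45g was nearest to 8 sites, all without a PBS peak, but the farthest was 307160 bp away, so the assignment to it is by distance alone. Ptpn1 was nearest to 7 sites, 70014 to 107150 bp away, and Wdr5 to 6, 17981 to 62697 bp away. None of these lay inside either gene, so both assignments are also by distance alone. Tns1, which encodes a focal adhesion protein, had 6, all inside the gene. Only 1 of the 7 near Ptpn1 had no PBS peak, against 4 of the 6 in Tns1.

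Classical glucocorticoid-induced genes were the list with the most sites. Of its 26 genes, 23 (88.5%) were nearest to a site with a peak in all 3 DEX libraries, against 3.85% of all 21900 protein-coding genes. A site with a peak in all 3 DEX and no PBS libraries was nearest to 17 of the 26 genes, against 3.2% of all genes, and a site of all 6 libraries to 6, against 0.256%. These shares take no account of gene length or spacing, and the lists were drawn up with results of these data known.

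Of the 8 tested sites near the 26 genes, 7 rose and 0 fell, with a median log2 change of 1.74, against 59 of all 66 nuclear sites (89.4%) and a median of 1.55. The site of the list that did not pass was that of Per1. Zfp36, whose protein destabilises inflammatory mRNAs, had 736.7, 1119.9 and 1155.6 tags with DEX and 418, 254.2 and 169.3 with PBS at a site 261 bp away. Cdkn1a had 628.1, 1009.1 and 1117.7 tags with DEX and 264.1, 183.4 and 123.6 with PBS. At both sites every DEX library was above every PBS library, and the log2 changes were 1.91 and 2.30.

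Klf9, a Krüppel-like transcription factor gene, had 262.4, 348.1 and 414.5 tags with DEX and 132, 115.2 and 139.2 with PBS, without overlap. Its log2 change of 1.39 passed the threshold, and with centring it did not differ from the common shift past the threshold (limma adjusted p = 0.447). Lpin1, encoding a phosphatidate phosphatase of lipid synthesis, had 459.8, 647.5 and 567.9 tags with DEX and 168.8 and 97.2 in PBS replicates 1 and 2. Mt1, whose promoter letters are shown above, had 137.6, 178.5 and 183.5 tags with DEX and 59.6 in PBS replicate 1 alone.

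Other genes of the list had no PBS peak at their highest site, and are given for their standing as targets after their values were seen. Mt2, another metallothionein gene, had 250.4, 388.7 and 386.8 tags with DEX. Dusp1, a phosphatase of MAP kinases, had 136.7, 188.7 and 193. Tat, the tyrosine aminotransferase, had 104.3, 149.2 and 131.3.

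Tsc22d3, which encodes the leucine zipper protein GILZ, had 58.1, 88.1 and 96.5 tags with DEX at a site 25978 bp away. Sgk1, a kinase of salt and metabolic control, had 56.4, 94.9 and 82.3. These values lie near the lowest tag counts called, so the absence of a PBS peak says little there. Igfbp1, a binding protein of insulin-like growth factors, had 128.2, 205.7 and 278.4 tags with DEX and 87.4 in PBS replicate 1.

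Of 19 genes of gluconeogenesis and amino acid breakdown, 9 (47.4%, against 3.85% of all genes) were nearest to a site of all 3 DEX libraries. For 7 (36.8%, against 3.2% of all genes) such a site had no PBS peak. None was nearest to a site of all 6, and only 0.256% of all genes were, so 0 is near that share. The highest by mean DEX tag count was that of Hpd, an enzyme of tyrosine breakdown, with 136.7, 276.9 and 321.1 tags with DEX and 71.5 in PBS replicate 1. Cps1, the entry enzyme of the urea cycle, had 189.7, 272.3 and 262.6 with DEX and no PBS peak.

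Gpt, an alanine aminotransferase, had 133.3, 198.9 and 234.1 tags with DEX and 63.5 in PBS replicate 1. Got1, an aspartate aminotransferase, had 120.5, 159.3 and 200.1 with DEX and no PBS peak. Pck1, the gluconeogenic PEP carboxykinase, had a site 370 bp away with 65.8, 107.4 and 139.2 tags with DEX and 67.5 in PBS replicate 1; it was named after its values were seen. The last of these PBS values lay inside the DEX range.

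Of 24 genes of fatty acid oxidation and ketogenesis, 6 (25%, against 3.85% of all genes) were nearest to a site of all 3 DEX libraries. Besides Lpin1 these included Bdh1, a ketone body dehydrogenase, with 175.2, 331.1 and 321.1 tags, and Ppara, the nuclear receptor of fasting metabolism, with 129.9, 281.4 and 325.1. Cpt1a, which admits fatty acids to mitochondria, had 90.6, 142.4 and 161.4. Only the Lpin1 site had a PBS peak among these 4.

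Of 26 targets of the hypoxia-inducible factors (HIF), 4 (15.4%) were nearest to a site of all 3 DEX libraries, against 3.85% of all genes. Hif3a, itself a HIF subunit gene, had the highest of their sites by mean DEX tag count, with 396.5, 622.7 and 777.5 tags with DEX and 71.5 and 51.2 in PBS replicates 1 and 2. Bnip3, a mitophagy receptor, had 217.9, 294.9 and 333 with DEX, and Pfkfb3, a driver of glycolysis, 100, 144.6 and 117.9. Neither had a PBS peak.

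Of 19 clock genes, 8 (42.1%, against 3.85% of all genes) were nearest to a site of all 3 DEX libraries. Besides Per1, Ciart had 173.5, 259.9 and 315.6 tags with DEX and Tef 124.8, 191 and 199.3, both without a PBS peak. Per2 had 74.3, 107.4 and 99.7 with DEX and 70.5 in PBS replicate 1. The single tested clock site was that of Per1.

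Of 24 acute phase and inflammation genes, 10 (41.7%, against 3.85% of all genes) were nearest to a site of all 3 DEX libraries. All 10 (41.7%, against 3.2% of all genes) were nearest to one with no PBS peak. Of their 15 sites, 14 (93.3%) had no PBS peak, against 78.3% of the sites over all genes. Lcn2, an iron-scavenging acute phase protein, had 215.4, 354.8 and 337 tags with DEX, Orm1 104.3, 159.3 and 143.2, and Il6ra, which encodes a cytokine receptor chain, 93.2, 123.2 and 136.1. The remaining site was one in Nfkbia, with 301.7, 403.4 and 492 tags with DEX and 145, 51.2 and 59.2 with PBS, a log2 change of 2.36 that passed the threshold.

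Of 18 genes of bile acid, cholesterol and xenobiotic metabolism, 9 (50%, against 3.85% of all genes) were nearest to a site of all 3 DEX libraries. Nr1i2, the xenobiotic receptor PXR, had 177.8, 247.5 and 308.5 tags with DEX and 151.9, 98.9 and 65.4 with PBS, without overlap. Its log2 change of 1.26 passed the threshold, and with centring it lay 0.37 below the common shift. Insig2, an anchor of the sterol sensor, had 86.3, 141.3 and 162.9 with DEX and no PBS peak.

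Of 16 liver transcription factor genes, 7 (43.8%, against 3.85% of all genes) were nearest to a site of all 3 DEX libraries. Rxra, the partner of many nuclear receptors, had 267.5, 507.4 and 571.1 tags with DEX and 163.8, 93.8 and 64.4 with PBS at a site 51277 bp away. Its groups did not overlap, and the log2 change was 2.10. Hnf4a, a hepatocyte factor, had 66.7, 94.9 and 124.2 with DEX and no PBS peak. The lowest of these values lies near the lowest tag counts called, so the absence of a PBS peak says little there.

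None of 15 Kupffer cell and leukocyte markers and none of 16 stellate cell and cholangiocyte markers was nearest to any of the 2349 sites, against 7.36% of all genes. At that share lists this short would hold few genes, so 0 is near it. By the same measure 6 of 15 hepatocyte markers (40%) and 4 of 14 endothelial markers (28.6%) were nearest to a site. Of 15 hepatocyte markers 3 (20%) were nearest to a site of all 3 DEX libraries, Alb, Cps1 and Asgr1, and of 14 endothelial markers 4 (28.6%), Flt1, Vwf, Stab2 and Gpihbp1, against 3.85% of all genes. The mean DEX tag counts of the 4 endothelial sites were 69.5 to 92.6. None of these 7 genes had a PBS peak at a site of all 3 DEX libraries. The values at the endothelial sites and at that of Asgr1 (mean 61.3 tags with DEX) lie near the lowest tag counts called. The absence of a PBS peak says little there. Binding near a gene does not show in which cells it occurred.

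**Figure D5:**
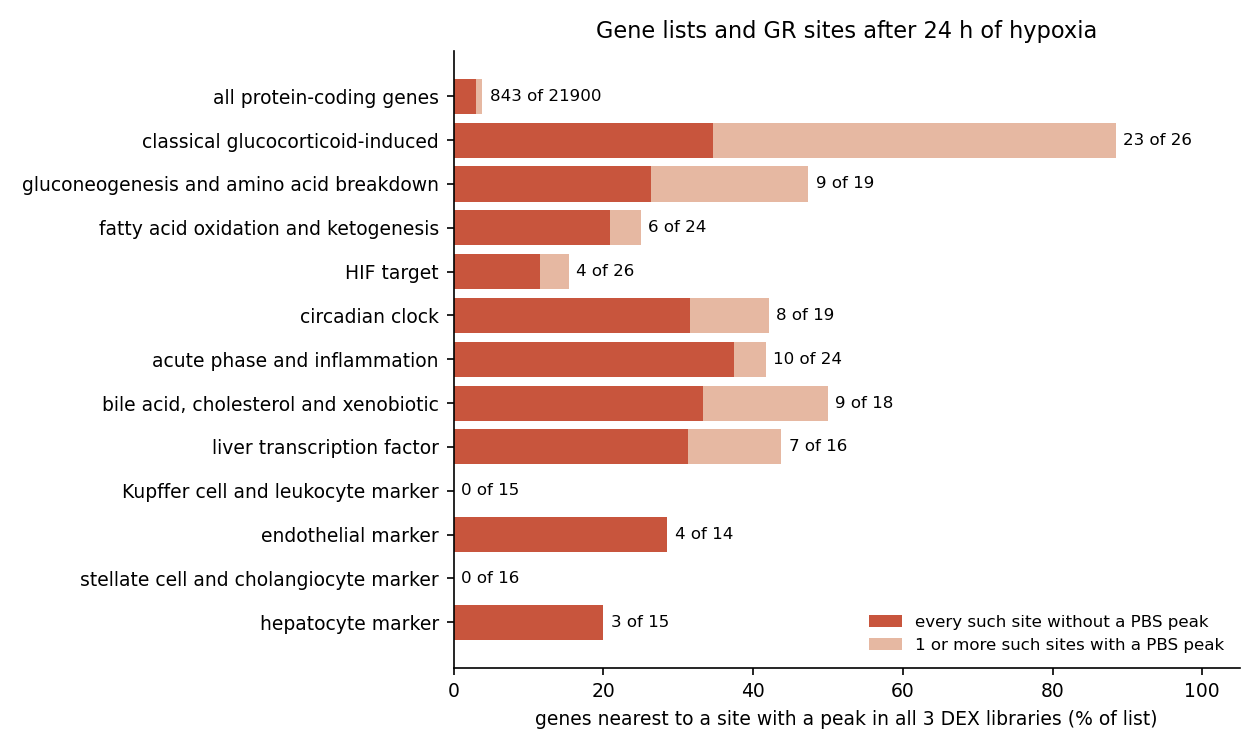
Share of the genes of each list, and of all protein-coding genes, that are nearest to a site with a peak in all 3 DEX libraries (percent), split by whether any such site of the gene had a PBS peak. Classical glucocorticoid-induced genes reach 23 of 26, HIF targets 4 of 26 and all genes 843 of 21900.

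Promoter sites were a small part of all of this. Of the 40 sites that covered a promoter window, 32 had no PBS peak, and 4 of these 32 (12.5%) held the looser response element. Of the 8 with a PBS peak, 5 held it. Promoters with a DEX site and no PBS peak included those of Pemt (phosphatidylcholine synthesis), with 72.6, 124.3 and 111.5 tags, Fga and Fgg (fibrinogen chains), Slc37a4 (the glucose-6-phosphate transporter), Car5a, Bhmt and Serpinf2. These were chosen after their values were seen. Among them Fgg had 48.7, 67.8 and 73.6 tags with DEX and Bhmt 51.3, 71.2 and 79.9. Such values lie near the lowest tag counts called, so the absence of a PBS peak says little there. The Slc10a6 promoter had 73.5, 113 and 130.5 tags with DEX and no PBS peak, and Map3k6 had 152.1, 205.7 and 241.3 with DEX and 60.6 in PBS replicate 1. The Orm2 promoter had 71.8, 84.8 and 132.9 tags with DEX and no PBS peak.

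The share of peaks inside protein-coding genes was higher in every DEX library than in any PBS library. The share was 52.2, 54.2 and 55.4% in DEX libraries and 46.9, 47.7 and 39.7% in PBS libraries, without overlap. The means were 53.9 ± 1.62% and 44.8 ± 4.39% (SD, n = 3 each, exact permutation p = 0.1, the smallest possible). PBS replicate 3 gave the lowest share and had the fewest peaks, 78. The share also varied between classes of sites of all 3 DEX libraries. It was 54.6% where no PBS library had a peak, 46.9% with 1, 57.1% with 2 and 38.8% with all 3. The lists differ in length and in the classes they hold, and the part of this in the difference was not tested.

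The question whether the DEX effect at 24 h of hypoxia differed from that in normoxia or at 6 h of hypoxia was addressed at 62 sites with a peak in all 18 libraries. The median log2 effect of DEX at these sites was 1.56 at 24 h, against 2.01 in normoxia and 1.17 at 6 h. No site differed in a limma interaction test at an adjusted p of 0.05 (0% of 62 for each contrast). The test covers only sites called in every PBS library. It does not extend to the 862 sites of all 3 DEX and no PBS libraries at 24 h, which could not enter it. At an unadjusted p of 0.05, 0 sites differed from normoxia and 1 from 6 h. With each library centred on its median, 2 sites were above and 3 below their normoxia effect at that unadjusted p, and 1 above and 3 below their 6 h effect, again with 0 at an adjusted p of 0.05.

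The median difference was -0.48 against normoxia and 0.42 against 6 h, each with a median standard error of 0.78 per site, so differences of this size could not be told from the spread between libraries. Without normoxia PBS replicate 1, whose peaks were 280 bp wide and which held 43645787 tags, the median difference from normoxia was 0.01. It was -0.77 without normoxia PBS replicate 2 and -0.68 without replicate 3. Without 6 h PBS replicate 2 the median difference from 6 h was -0.03, and without 6 h PBS replicate 1 it was 0.91, with 13 sites at an unadjusted p under 0.05 and 0 at an adjusted one.

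With centring the Ttpal site came nearest to a difference, at 1.11 ± 0.30 (SE) above its normoxia effect and 1.12 ± 0.30 above its 6 h effect. Its limma adjusted p-values were 0.0854 and 0.0727, and it was named after its values were seen.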

How the data were processed

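GR ChIP-seq was measured in 3 DEX and 3 PBS livers after 24 h of hypoxia, grouped by their titles, which the series' design text calls biological replicates. Reads were handled with Trimmomatic, BWA 0.7.17 and SAMtools 1.10 on mm10, per the submitters' processing notes. Peaks were called with HOMER per library against the input of 24 h hypoxia, per the file headers, at 4-fold over input and surroundings and 50 tags. Because that minimum was not scaled, it stood for 39.5 to 56.5 normalized tags in the 6 libraries. The deposited signal is the authors' normalized tag count per peak, scaled to 10000000 tags. The deposited count is the authors' total tags per peak. The deposited score and the fold (a ratio) over input come from the authors' peak caller and served only to rank or filter peaks. Input tags were scaled to each library, per the file headers. Precision is limited by 3 libraries a group.

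Merging, nearest genes (21900 RefSeq protein-coding genes, GRCm38.p6, distance to the gene span, 0 inside; 1 listed symbol, Tf, matched by its synonym Trf) and exact permutation tests used Python 3.11.15, pandas 2.3.3, NumPy 2.4.6, SciPy 1.17.1 and matplotlib 3.10.9. A site's tag count is that of its highest peak. Sites of all 6 libraries were tested with limma 3.58.1 in R 4.3.3 on log2 normalized tags, with no pseudocount and Benjamini-Hochberg adjustment at 0.05; the 18-library interaction used the same scale. edgeR 4.0.16 on total tags was an alternative. The limma fits were tested on simulated data with independent noise at each site. That simulation held no shared shift of a library, so it does not cover the dependence between sites seen here. Lists were checked and none was identical to another.

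Named sites were the 12 of all DEX and no PBS libraries with the highest tag count in their lowest DEX library, the 12 largest and 4 smallest changes of the shared sites, up to 4 genes a list, sites of 2 PBS and no DEX libraries, and the 5 genes with most sites. The members and lists were chosen with earlier results of these data known. The looser response element, neighbour ratios and edgeR were added after seeing the data. Inputs as samples and normoxia or 6 h libraries on their own were not analysed here. No genome was used here, so letters were read only at promoters.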

Additional observations from a re-analysis of the deposited data

How the results depend on the processing

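The number of sites higher with DEX, 59 of 67 (1 lower), was 14 with 22 lower when libraries were centred on their median, 130 of 144 with 1 lower when sites of all 3 DEX and at least 2 PBS libraries were used, and 904 of 1108 with 5 lower when libraries without a peak took their lowest called tag count. Of these 1108 sites, 862 had a peak in all 3 DEX and no PBS libraries. Their direction was largely set by the filled value, so the 904 adds no support. The number of sites higher with DEX was 48 to 59 with a pseudocount of 10, summed peaks, a 100 bp overlap, all 18 libraries (48 of 62), edgeR on total tags or no mitochondrial site, and 50 to 64 when a library was left out. Centring takes 1.63 from every change, so 39 of the 64 positive changes became negative by construction, among those named Adk at -1.03, Noct at -0.96, Klf9 at -0.24 (adjusted p = 0.447 in limma) and Nr1i2 at -0.37. These values place a site under the common shift and show no fall with DEX. At equal list length the difference in log2 peak number was 0 by construction, sites of all DEX and no PBS libraries numbered 26 and sites of all 6 libraries 32. Leaving out 1 library gave 862 to 1100 and 67 to 143 for these counts, 143 being without PBS replicate 3, log2 peak differences of 2.98 to 3.85, shares of tags of 1.52 to 2.21 points, shares inside genes of 6.63 to 10.6 points and log2 medians of 1.39 to 1.90. The causes were not tested.

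Same-numbered DEX and PBS libraries did not deviate together over sites at all 3 numbers (correlations 0.02, 0.23 and -0.06). A correlation over sites leaves out shifts of a whole library, so this check cannot exclude that the numbers pair the libraries. With the replicate number as a block 51 sites were higher and 1 lower, and 0 sites differed from normoxia or 6 h. The interaction counts were 0 under centring and with any library left out. Depth limits the sites called: 1 peak needed 50 tags, and weaker binding was not detectable.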
